A study of Mus musculus with 8 samples.

Results

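Cholesterol synthesis and SREBP genes were followed through control and Ovol1/2 iDKO epidermis as a list of 27 genes of the mevalonate pathway, the sterol steps, the SREBP transcription factors with their partners, and sterol handling. The genes were chosen by name for these roles, and their rows were found by Ensembl identifier in each count table, 27 of 54838 genes. This list and the other lists below were chosen with earlier results of these data known. Shares set beside those of all tested genes are therefore descriptions. All 27 had enough counts to be among the 17839 genes tested. RNA came from the epidermis of mouse skin, released with trypsin, and was measured in 8 libraries that form 4 groups of 2 biological replicates: control at 25 DPI, Ovol1/2 iDKO at 25 DPI, control at 52 DPI and Ovol1/2 iDKO at 52 DPI. The labels do not spell out iDKO or DPI, and they name no agent, driver line or deleted part that the groups carry or share. The sources used here do not give strain, age or any pooling of animals.

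Cholesterol is built from acetyl-CoA through mevalonate, isoprenoid diphosphates, squalene and lanosterol, and the isoprenoids also feed protein prenylation, dolichol and ubiquinone. When membrane sterol is low, SCAP carries the SREBP precursors from the endoplasmic reticulum to the Golgi, where proteases free the transcription factors that switch on genes of sterol and fatty acid synthesis, while the INSIG proteins hold SCAP back when sterol is plentiful. Keratinocytes make their own cholesterol for the lamellar lipids of the skin barrier, and sebaceous glands are another site of intense lipid synthesis in skin.

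The libraries held 9824307 to 50711381 counts, of which the 27 genes took 0.154% to 0.311%. Replicate 1 and replicate 2 libraries differed in kind: the share of stranded counts that fell on the second strand was 49.8% to 50.0% in the former and 95.4% to 95.7% in the latter. Each library labelled iDKO is therefore also set against the control library of its time and replicate number, which gives 4 pairs. Ovol1 and Ovol2, the transcription factor genes named in the genotype, had 36.3 to 204 and 7.52 to 44.6 CPM (counts scaled to a common library total) and were higher in the iDKO library of all 4 pairs, and since the labels do not give the deleted part these counts do not check the genotype. Every direction below is therefore that of the libraries labelled iDKO. Counts of the Y chromosome genes Ddx3y, Eif2s3y, Kdm5d and Uty were found in every 25 DPI library and were 0 in every 52 DPI library, so sex and time cannot be told apart. In bulk epidermis, fewer cells of a type and less RNA per cell cannot be told apart either.

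Promoters of the listed genes are shown first because SREBPs act on such windows together with the factors that bind the CCAAT box and the GC box. RefSeq promoters (GRCm38.p6) matched 23 of the 27 genes by symbol, with 31 promoters. Fdft1, Sqle, Fdps and Stard4 had none in the table. The stretches below are the 180 bases before the start site of 6 genes, written in the direction of the gene. They lie at chr13:119690171-119690350 on the plus strand (Hmgcs1, HMG-CoA synthase), chr5:114444089-114444268 on the plus strand (Mvk, mevalonate kinase), chr8:122443423-122443602 on the minus strand (Mvd, mevalonate diphosphate decarboxylase), chr9:42264301-42264480 on the minus strand (Sc5d, lathosterol oxidase), chrX:8193513-8193692 on the minus strand (Ebp, sterol isomerase) and chr9:110333108-110333287 on the plus strand (Scap, the SREBP escort). None of these stretches holds a base of an annotated GENCODE exon. Hmgcs1 carries the sterol regulatory element match, Mvk the most CCAAT boxes, Mvd is the gene with the widest range between libraries, Sc5d is one of those higher in the iDKO library of all 4 pairs, Ebp has a sign that turns with time, and Scap has no CCAAT box and the levels least like the rest. Capitals mark CCAAT on either strand (CCAAT or ATTGG) and the relaxed sterol regulatory element TCACNCCAC.
Hmgcs1: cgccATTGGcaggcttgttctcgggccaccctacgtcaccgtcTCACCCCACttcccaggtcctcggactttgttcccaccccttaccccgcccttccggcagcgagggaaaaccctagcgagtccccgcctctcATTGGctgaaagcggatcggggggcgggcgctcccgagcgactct
Mvk: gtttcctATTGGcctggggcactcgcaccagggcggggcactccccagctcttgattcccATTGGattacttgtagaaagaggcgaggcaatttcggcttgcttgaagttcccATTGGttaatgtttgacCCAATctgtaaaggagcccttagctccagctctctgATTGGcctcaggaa
Mvd: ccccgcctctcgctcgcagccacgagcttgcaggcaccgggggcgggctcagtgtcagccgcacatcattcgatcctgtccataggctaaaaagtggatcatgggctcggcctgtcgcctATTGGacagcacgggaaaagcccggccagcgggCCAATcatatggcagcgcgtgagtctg
Sc5d: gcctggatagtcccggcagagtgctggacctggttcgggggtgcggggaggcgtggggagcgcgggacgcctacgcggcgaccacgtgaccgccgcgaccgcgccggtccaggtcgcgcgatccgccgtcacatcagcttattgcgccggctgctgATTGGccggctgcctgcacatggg
Ebp: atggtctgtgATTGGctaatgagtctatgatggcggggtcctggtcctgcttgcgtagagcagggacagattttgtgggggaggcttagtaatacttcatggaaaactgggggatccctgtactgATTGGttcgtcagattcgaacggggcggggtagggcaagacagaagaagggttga
Scap: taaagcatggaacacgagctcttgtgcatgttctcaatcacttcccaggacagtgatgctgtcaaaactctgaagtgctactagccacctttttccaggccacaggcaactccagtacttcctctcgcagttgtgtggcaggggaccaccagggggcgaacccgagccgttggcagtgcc

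In the 250 bases before the start site, on both strands, CCAAT was found in 21 of the 23 genes with a promoter (91.3%), against 37.5% of all 27025 genes in the table and 39.6% of the 11797 tested genes matched to it. A gene with several promoters counted once if any of them held the letters. The GC box GGGCGG was found in 20 of 23 (87.0%), against 35.4% of all genes and 60.4% of tested genes. The relaxed sterol regulatory element TCACNCCAC was in 1 of 23, Hmgcs1, 137 bases before the start, and in 1.225% of all genes and 1.263% of tested genes. The stricter consensus of that element, one base longer, was in 0 of 23. No match of one motif overlapped a match of another in these promoters. Mvk held 5 CCAAT boxes in its promoter, and Hmgcs1, Msmo1, Hsd17b7, Ggps1 and Insig2 held 3 at most in one promoter. Acat2 and Scap were the genes with 0. These are matches of letters and say nothing of binding in epidermis.

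Hmgcs1, which makes HMG-CoA for the mevalonate pathway, had the highest level per exon length, and the SREBP genes followed it. Levels are given as CPM per kb of exon when genes are compared with each other. Hmgcs1 averaged 67.4 CPM per kb over the 8 libraries, Insig2 39.2, Srebf2 34.1 and Srebf1 33.0. At the other end Fdps, the farnesyl diphosphate synthase gene, averaged 1.34 CPM per kb, Tm7sf2 1.84 and Soat1 1.85. Hmgcs1 stood above 96.4% of the tested genes on this scale and Fdps above 33.4%. Fdps shares 26.7% of its exon length with a gene model on the same strand, Gm43738, and Tm7sf2 12.1% with Vps51. Reads over these shared parts may be left uncounted, so the levels of Fdps and Tm7sf2 may be too low. On the other strand Fdft1 shares 18.3% with Ctsb, Scap 13.2% with 5830462I19Rik and Hmgcs1 12.1% with Gm48342. Such overlaps cannot be told apart where counting ignores strand, so the levels of these genes may be too low as well.

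**Figure D1:**
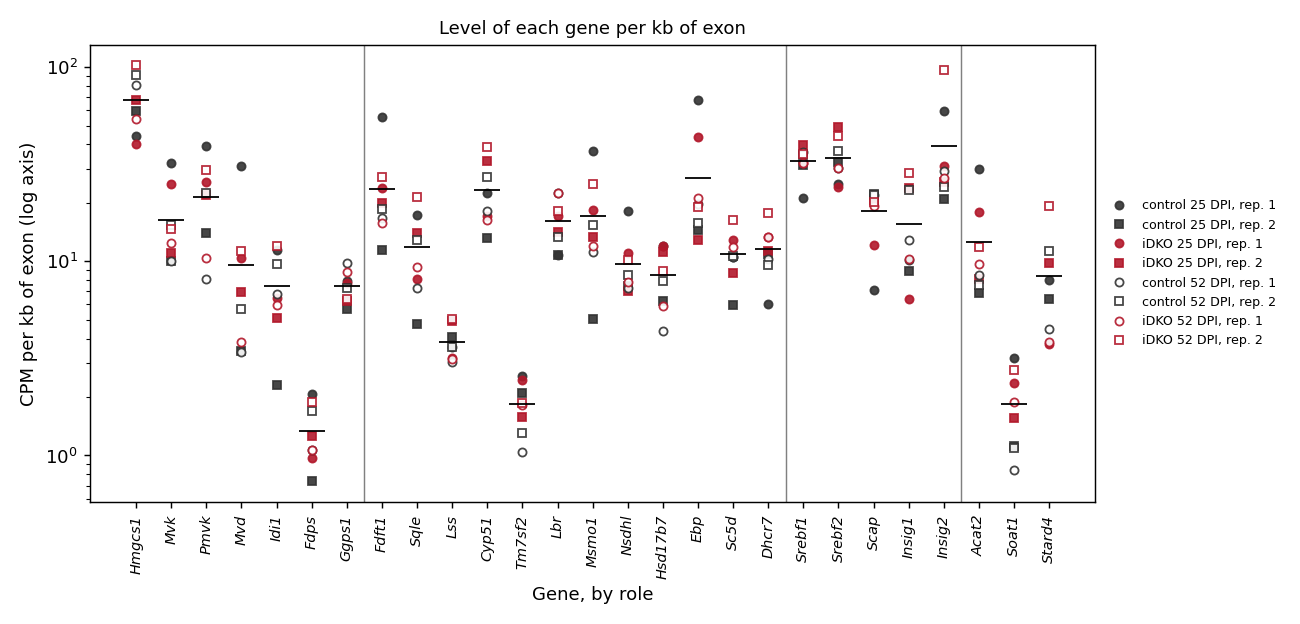
Level of the 27 genes in CPM per kb of exon on a log axis, by role (vertical lines separate mevalonate and isoprenoid steps, sterol steps, SREBP system, and sterol handling). Points are the 8 libraries (black control, red iDKO, filled 25 DPI, open 52 DPI, circles replicate 1, squares replicate 2) and the bar is their mean; Hmgcs1 is highest at a mean of 67.4 and Fdps lowest at 1.34.

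Some genes of the list ranged widely between libraries and others hardly. Mvd spanned a 9.14-fold range of CPM, Msmo1 7.37-fold and Ebp 5.31-fold, while Lss spanned 1.66-fold, Ggps1 1.72-fold and Srebf1 1.89-fold. Most of the span came from a few libraries. Control 25 DPI replicate 1 was the highest library for 12 of the 27 genes and iDKO 52 DPI replicate 2 for 10. Control 25 DPI replicate 2 was the lowest for 10 and control 52 DPI replicate 1 for 7. The mean log2(CPM + 0.5) of the 27 genes was 6.03 and 5.10 in control and 5.65 and 5.62 in iDKO at 25 DPI, and 5.32 and 5.63 in control and 5.41 and 6.11 in iDKO at 52 DPI, replicate 1 first. Less the mean of the 8 libraries, the 2 control libraries at 25 DPI stood at 0.42 and -0.51, so replicates of 1 group were about as far apart as any libraries.

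**Figure D2:**
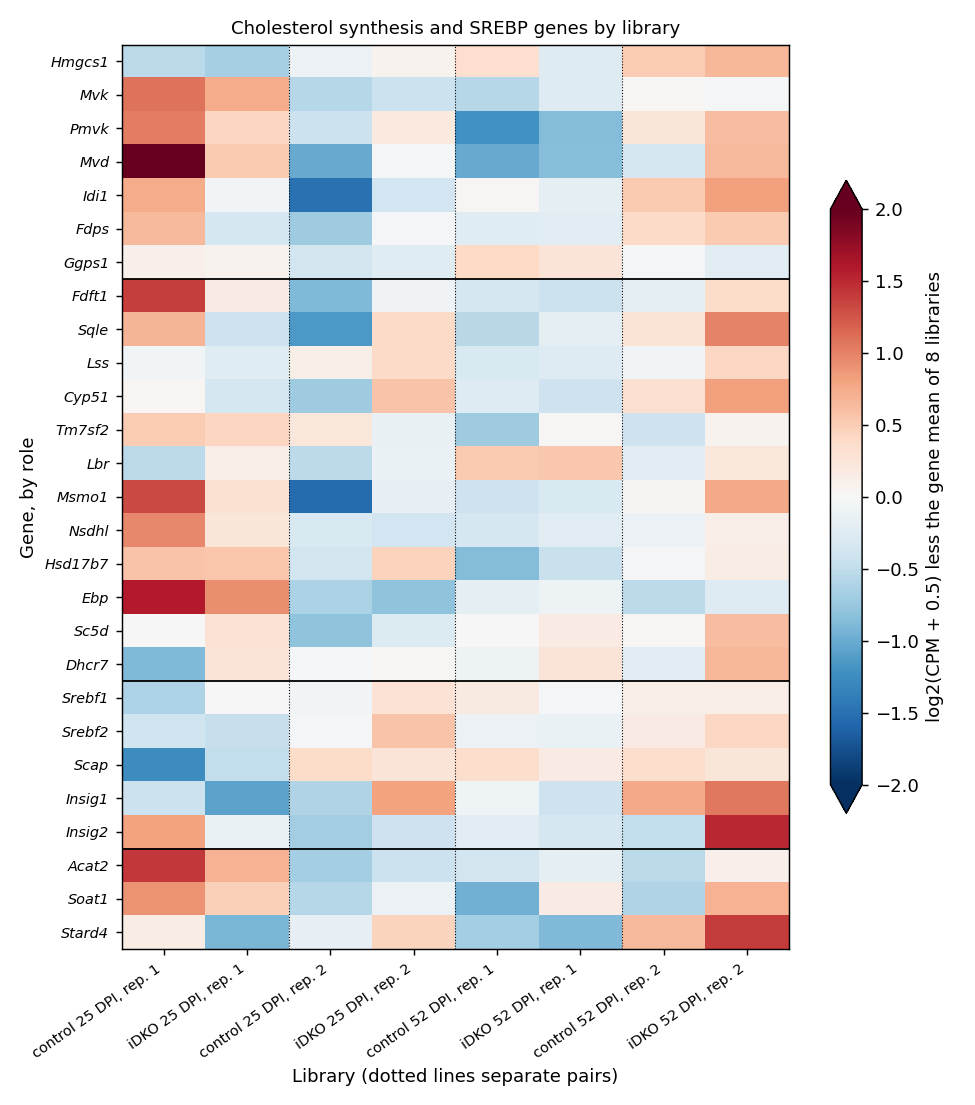
Log2(CPM + 0.5) of each gene less its mean over the 8 libraries, genes in rows by role and libraries in columns by pair. Control 25 DPI replicate 1 and iDKO 52 DPI replicate 2 are the reddest columns (highest library for 12 and 10 of 27 genes), while Scap, Srebf1, Lbr and Hmgcs1 are low in the first of them.

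Not all 27 genes took part in this common pattern. Over the 8 libraries, the log2 level of Msmo1 followed the mean of the other 26 genes with a Pearson r of 0.93, Sqle of 0.91, Fdps of 0.88, Fdft1 of 0.85 and Insig2 of 0.84. For Scap the r was -0.57, for Srebf1 -0.34, for Lbr -0.15, for Ggps1 -0.09 and for Dhcr7 -0.08. Libraries differ in depth and strand type and are paired, so these values describe 8 libraries and no test is attached. Without control 25 DPI replicate 1 the r of Dhcr7 was 0.67 and that of Srebf1 0.37, while Msmo1 stayed at 0.92. Among genes outside the list, those most like the mean of the 27 were 2310046K23Rik (r 0.96 over 8 libraries), Srsf10 (0.96), Sprr1a (0.96), Skint3 (0.96), Pcyt2 (0.94), Mpp7 (0.94), Sox5 (0.93), Hoxc13 (0.92), Plet1 (0.92) and Anapc7 (0.92).

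The keratins Krt79 and Krt17 of the sebaceous duct and hair follicle were highest in the same 2 libraries, and several other markers of these appendages were highest elsewhere. The summed CPM of 12 sebaceous gland markers, all tested and detected in every library, was 7834 in control 25 DPI replicate 1 and 6749 in iDKO 52 DPI replicate 2, against 1848 to 3371 in the other 6. Most of the sum was Krt79, at 5765 and 5786 CPM in those libraries. Without Krt79 the sum was 2068 in control 25 DPI replicate 1, 1364 in iDKO 25 DPI replicate 1 and 964 in iDKO 52 DPI replicate 2, against 288 to 653 in the other 5. Lipid genes of sebocytes were high in both 25 DPI replicate 1 libraries: 6 of the 12 markers, Pparg and Elovl3 among them, peaked in the control library, and 4, Scd3, Awat1, Awat2 and Far2, in the iDKO library. Awat1 was at 15.4 CPM and Far2 at 102 CPM in iDKO 25 DPI replicate 1, while in iDKO 52 DPI replicate 2 Awat1 was at 0.0654, Elovl3 at 0.196 and Pparg at 1.243 CPM. The sum of 10 hair follicle markers was 5813 and 5606 in control 25 DPI replicate 1 and iDKO 52 DPI replicate 2 against 1164 to 2697, and Krt17 made up 5339 and 5015 of it. Without Krt17 it was 474 and 591, within the 182 to 610 of the other 6. In iDKO 52 DPI replicate 2 the stem cell markers Cd34 and Lgr5 were low, at 59.3 and 20.2 CPM against 188 to 207 and 69.8 to 78.4 in the other 52 DPI libraries. Lhx2 and Sox9 of the same list were not low, at 116 and 213 CPM against 83.9 to 119 and 128 to 248. Krt71, a keratin of the inner root sheath, was high in iDKO 52 DPI replicate 2 at 81.3 CPM. T cell markers, 8 of 8 tested, summed to 715 CPM in control 25 DPI replicate 1 and 474 CPM in iDKO 52 DPI replicate 2 against 78.8 to 295 elsewhere. Melanocyte markers, 6 of 6 tested, summed to 367 and 61.0 CPM in these libraries against 38.5 to 49.7 elsewhere. In iDKO 52 DPI replicate 2 the higher sum came from Kit, at 28.8 CPM against 3.65 to 8.98 in the other libraries. Tyrp1, Pmel and Mlana had their lowest CPM in that library. Erythroid markers, 5 of 5 tested and 3 at 0 in some library, summed to 111 CPM in control 25 DPI replicate 1 and 18.3 CPM in iDKO 52 DPI replicate 2 against 0.628 to 3.19 elsewhere. Langerhans cell markers had their highest sum in iDKO 52 DPI replicate 1 (1120 CPM), and fibroblast markers in iDKO 25 DPI replicate 2 (160 CPM). Basal keratinocyte markers, 7 of 7 tested, had their lowest sum in iDKO 52 DPI replicate 2, at 25719 CPM against 35775 to 51068. The part of these cells in the levels of the sterol genes was not tested.

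Gene length also went with the 25 DPI replicate 1 libraries. In the shortest quintile of tested genes the median deviation from the gene mean (log2) was 1.41 above that of the longest quintile in control 25 DPI replicate 1 and by 0.89 in iDKO 25 DPI replicate 1, and by -0.69 to -0.11 in the other 6. Within the list, the deviation in control 25 DPI replicate 1 had an r of -0.57 with log2 exon length over the 27 genes, with short genes such as Mvd and Ebp high and long ones such as Scap low. The long genes Soat1 (9.79 kb) and Msmo1 (6.14 kb) went the other way, with their highest CPM in that library. Exon length had a median of 4.59 kb in the list and 3.67 kb in the tested genes.

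**Figure D3:**
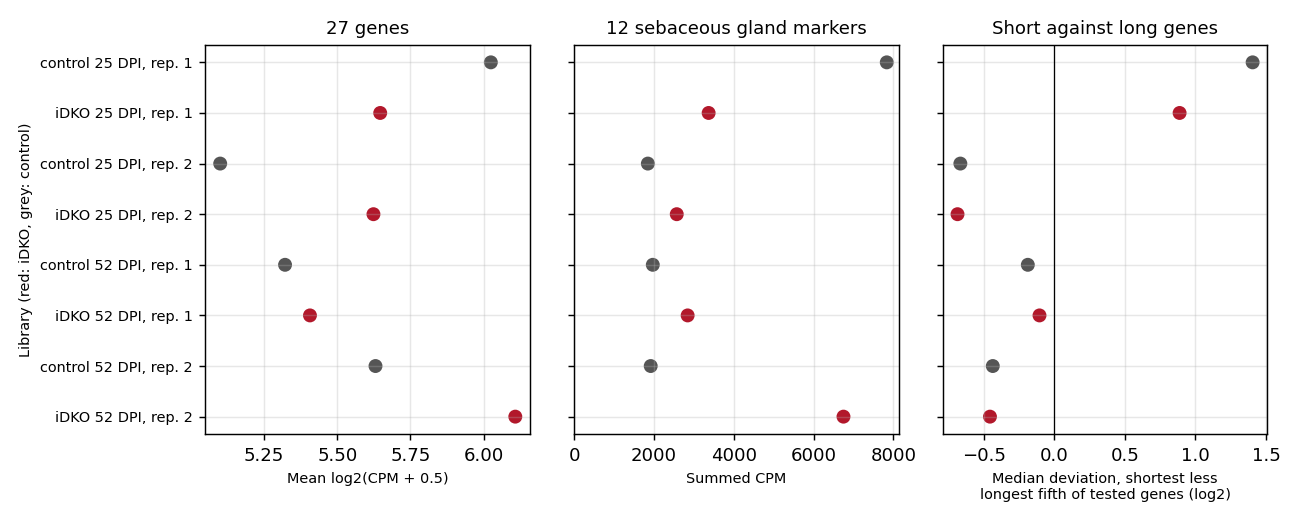
By library (red iDKO, grey control): mean log2(CPM + 0.5) of the 27 genes, summed CPM of 12 sebaceous gland markers, and median deviation of short less long genes (log2). Control 25 DPI replicate 1 and iDKO 52 DPI replicate 2 are highest in the first and second panels (Krt79 makes up most of the marker sum), and only the 25 DPI replicate 1 libraries lie above 0 in the third.

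The comparison of iDKO with control asks whether sterol synthesis genes differ in epidermis of the Ovol1/2 genotype. No gene of the list passed the test at either time. The pairs went different ways at 25 DPI, lower in replicate 1 and higher in replicate 2, and in replicate 2 they were higher at both times. The median log2 ratio of the 27 genes, iDKO over control, was -0.42 in the 25 DPI replicate 1 pair (5 of 27 higher), 0.46 in the 25 DPI replicate 2 pair (23 higher), 0.04 in the 52 DPI replicate 1 pair (16 higher) and 0.44 in the 52 DPI replicate 2 pair (24 higher). Of all tested genes 23.8% were higher in both replicate 2 pairs, against 21 of the 27. In both replicate 1 pairs 3 of 27 were higher (21.8% of tested genes) and 9 of 27 lower (20.6%). Higher in both 52 DPI pairs were 15 of 27 (27.8% of tested genes), and higher in both 25 DPI pairs 4 of 27 (25.5%). After each gene's ratio was set against the median of tested genes of similar length, the pair medians were -0.44, 0.40, 0.04 and 0.45 in the same order.

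**Figure D4:**
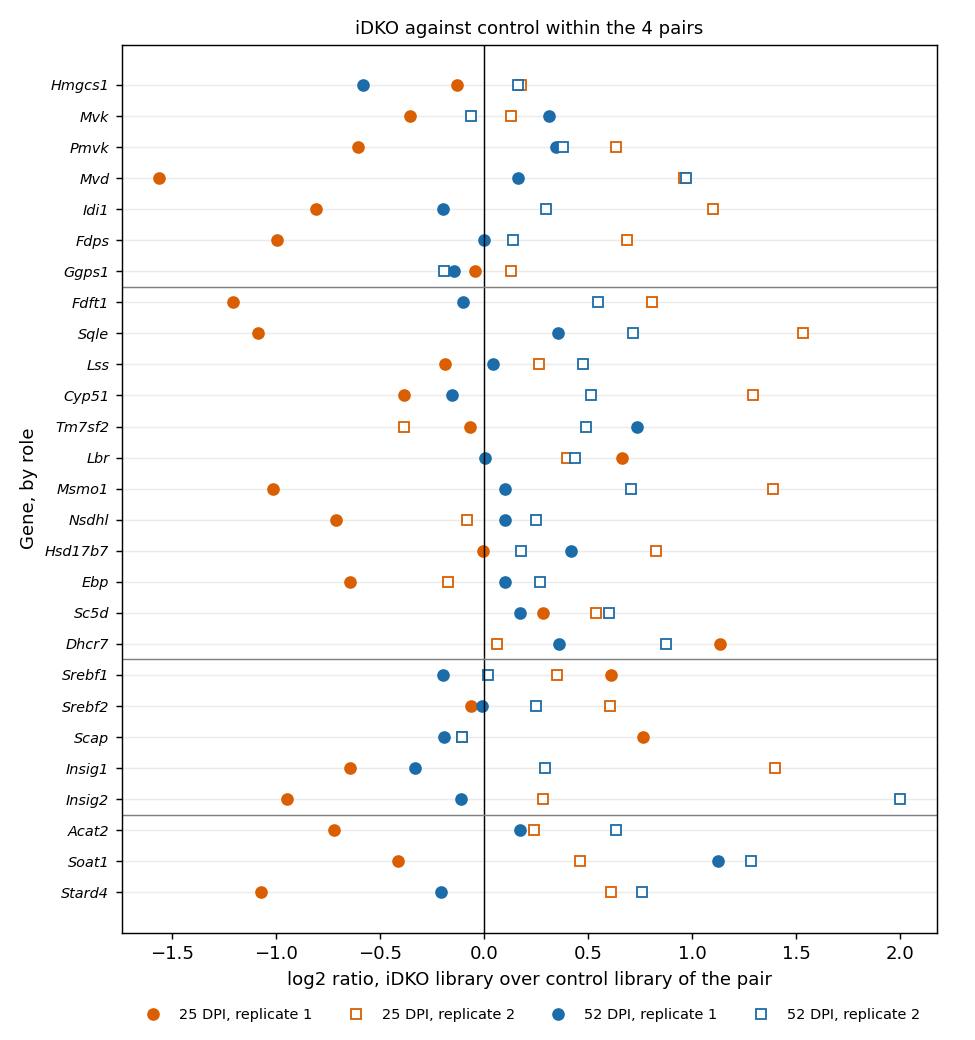
Log2 ratio of the iDKO library over the control library in each of the 4 pairs, by gene and role. In the 25 DPI replicate 1 pair (filled orange) 22 of 27 genes lie below 0, and in the 52 DPI replicate 2 pair (open blue) 24 lie above it.

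At 25 DPI the 27 genes had a median log2 fold change of -0.08 (13 positive, 14 negative), against -0.03 over all tested genes. By edgeR's quasi-likelihood test 0 of 27 were called at an adjusted p under 0.05 (0% of tested genes), and 0 of 27 had an unadjusted p under 0.05 (0.42% of tested genes). DESeq2 called 0 of 27 (0.0112% of tested genes), with 0 of 27 at an unadjusted p under 0.05 (1.04%). Without control replicate 1 the median was 0.72 and without control replicate 2 it was -0.32. At 52 DPI the median was 0.28 (23 positive, 4 negative), against -0.01 over all tested genes, with 0 of 27 called by edgeR (0%) and 0 of 27 at an unadjusted p under 0.05 (0.802%). DESeq2 called 0 of 27 (0.00561%) and had 0 of 27 at an unadjusted p under 0.05 (1.45%). Without iDKO replicate 2 that median was -0.10, and without iDKO replicate 1 it was 0.59. Across both times the median was 0.18 (17 positive, 10 negative), with 0 of 27 called by edgeR (0%), and 0 at an unadjusted p under 0.05 (0.729%). DESeq2 called 0 (0.0448%) and had 0 at an unadjusted p under 0.05 (1.37%). That median was -0.02 without iDKO 52 DPI replicate 2 and 0.43 without control 25 DPI replicate 1.

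A model with a block for each pair narrowed the errors and still called 0 of 27 genes by edgeR in each genotype comparison (0% of tested genes at 25 and at 52 DPI and for the difference between times, 0.00561% across both times). At an unadjusted p under 0.05 it found 1 gene at 25 DPI, Lbr (6.51% of tested genes), 1 at 52 DPI, Soat1 (4.28%), 3 across both times, Dhcr7, Sc5d and Lbr (4.02%), and 1 for the difference between times, Soat1 (6.26%). DESeq2 with the same block called 0 of 27 in each of these comparisons (0.652%, 0.196%, 0.392% and 0.309% of the genes it tested), with 0, 1, 2 and 1 genes at an unadjusted p under 0.05 (6.69%, 5.3%, 4.57% and 6.92%). A block for the replicate number alone, shared by both times, gave 0, 0, 1 (Dhcr7) and 0 genes at an unadjusted p under 0.05 by edgeR (1.35%, 1.68%, 1.86% and 2.07%) and called 0 of 27 in each (0%). The difference between the genotype effects, 52 less 25 DPI, had a median of 0.36 over the 27 genes without a block, with 0 called by edgeR (0%), 0 at an unadjusted p under 0.05 (0.779%) and 0 called by DESeq2 (0%), which had 0 at an unadjusted p under 0.05 (1.7%). That median was -0.40 without control 25 DPI replicate 1, -0.13 without iDKO 52 DPI replicate 2 and 0.91 without control 25 DPI replicate 2.

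**Figure D5:**
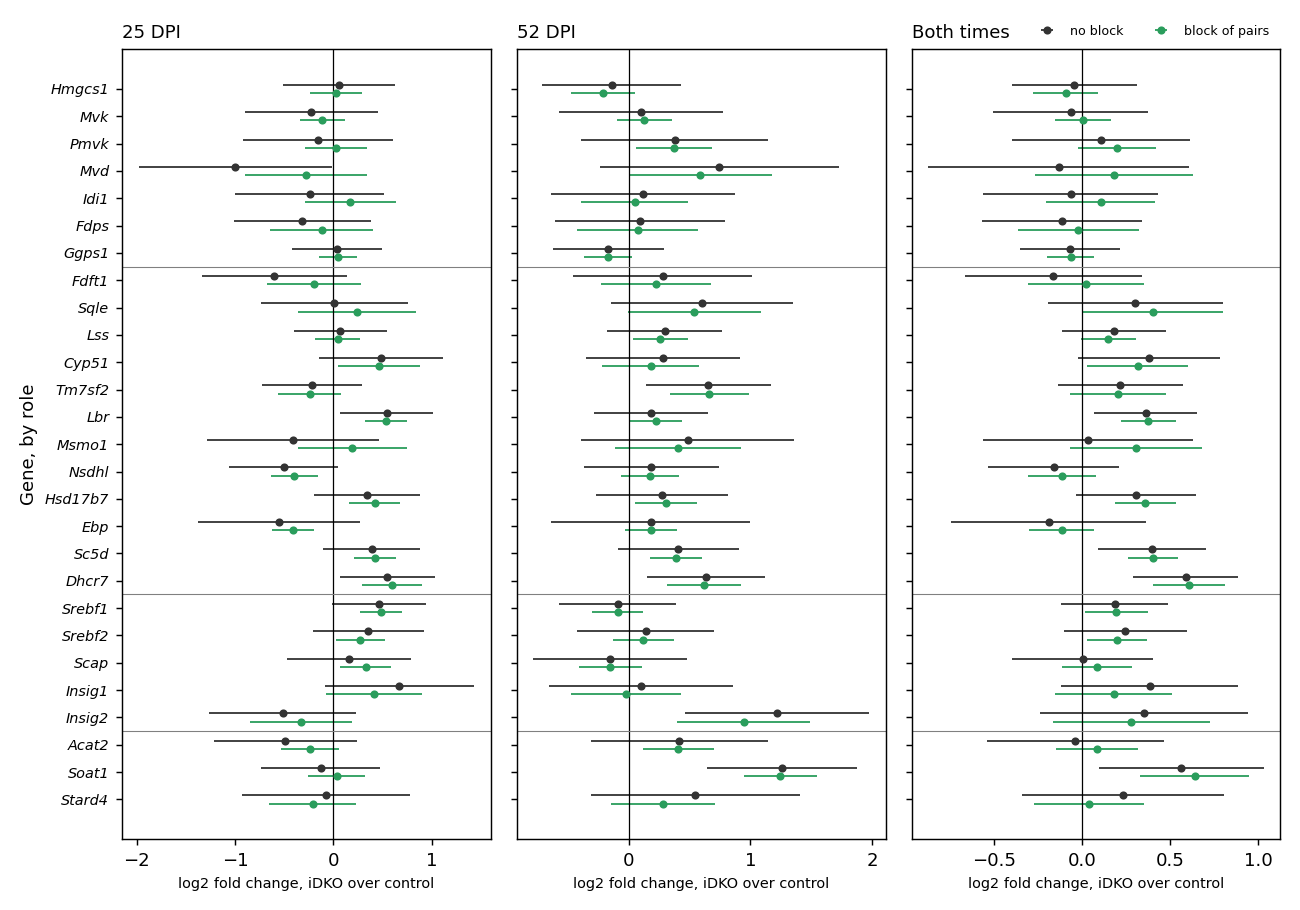
Log2 fold change of iDKO over control with its standard error, by gene and role, without a block (black) and with a block of pairs within time (green), at 25 DPI, at 52 DPI and across both times. The block shortens most error bars, and the bars of Dhcr7, Sc5d and Lbr lie to the right of 0 in the right panel under both models.

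Among the mevalonate and isoprenoid genes, 7 in all, values at 25 DPI followed the pair, with 0 of 7 higher in the replicate 1 pair and 7 of 7 in the replicate 2 pair. Their median log2 fold change was -0.23 at 25 DPI (2 positive), 0.10 at 52 DPI (5 positive) and -0.06 across both times (1 positive). Hmgcs1 condenses acetoacetyl-CoA with acetyl-CoA. It was at 203 and 273 CPM in control against 186 and 309.7 in iDKO at 25 DPI, and at 371 and 419 against 248 and 469 at 52 DPI (control first and replicate 1 before replicate 2, here and below). Its genotype groups overlapped at both times, with log2 fold changes of 0.06 (SE 0.57) and -0.14 (SE 0.57). Mvd, which makes isopentenyl diphosphate, was at 57.9 and 6.39 CPM in control against 19.3 and 12.9 in iDKO at 25 DPI, and at 6.34 and 10.5 against 7.16 and 21.1 at 52 DPI. The first library stood far above the other 7, which lay between 6.34 and 21.1 CPM. Its log2 fold change of -0.998 (SE 0.98) at 25 DPI was 1.28 without control replicate 1, and the value at 52 DPI was 0.74 (SE 0.98). With the block of pairs Mvd had -0.28 (SE 0.62) and 0.59 (SE 0.58). Idi1 interconverts the isoprenoid building blocks, and was at 39.9 and 8.10 CPM in control against 22.6 and 18.0 in iDKO at 25 DPI, and at 23.9 and 34.1 against 20.8 and 42.1 at 52 DPI. The iDKO values lay within the control range at 25 DPI and around it at 52 DPI. Fdps, the gene of the list with the lowest mean CPM, was at 8.69 and 3.10 CPM in control against 4.11 and 5.30 in iDKO at 25 DPI. At 52 DPI Fdps was at 4.49 and 7.13 against 4.49 and 7.91 CPM. Its counts were 36 to 156 per library. The kinases Mvk and Pmvk ranged from 26.8 to 86.1 and from 13.9 to 67.2 CPM, both highest in control 25 DPI replicate 1. Ggps1, whose product leads to protein prenylation, ranged only from 26.8 to 46.2 CPM.

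The sterol steps, 12 genes from squalene to cholesterol, had higher fitted values in iDKO at 52 DPI throughout, as did the 3 genes of sterol handling. All 12 had a positive log2 fold change there (0.18 to 0.65, median 0.29, with 48.4% of tested genes positive), none of them called by edgeR. In the pairs 10 of 12 were higher in replicate 1, with a median log2 ratio of only 0.10 and Lbr and Lss near 0. In replicate 2 it was 12 of 12, with a median of 0.50. Without iDKO 52 DPI replicate 2 the median fold change of all 27 genes was -0.10. Several marker lists of other cells also leaned one way in the same comparison, with 0 genes called by edgeR. Values were positive for 8 of 8 T cell (median 1.21), 5 of 5 Langerhans cell (1.12) and 4 of 4 tested macrophage markers (1.09). So were those of 6 of 6 fibroblast (1.03), 5 of 5 erythroid (2.27) and 11 of 12 sebaceous gland markers (0.66). Positive values were found for 0 of 7 basal keratinocyte (-0.55) and 1 of 6 melanocyte markers (-0.24). Within the replicate 1 pair 12 of 12 sebaceous gland, 2 of 6 fibroblast and 0 of 5 erythroid markers were higher in iDKO. Within the replicate 2 pair it was 6 of 12, 5 of 6 and 5 of 5. The part of these lists in the result was not tested. At 25 DPI the sterol steps had 7 positive and 5 negative values (median 0.04). Of these genes 3 of 12 were higher in the replicate 1 pair and 9 of 12 in the replicate 2 pair. Sqle, squalene epoxidase and a rate-limiting oxygenase of the pathway, was at 95.6 and 26.5 CPM in control against 44.7 and 77.8 in iDKO at 25 DPI, and at 40.6 and 71.9 against 52.1 and 119 at 52 DPI. The control values at 25 DPI enclosed the iDKO values, and the groups overlapped at 52 DPI, where the log2 fold change of 0.60 (SE 0.75) was -0.10 without iDKO replicate 2. Cyp51, the lanosterol demethylase, was at 98.8 and 58.6 CPM in control against 75.6 and 144 in iDKO at 25 DPI, and at 80.4 and 120.2 against 72.3 and 172 at 52 DPI. It was higher in iDKO in the replicate 2 pair at both times and lower in the replicate 1 pair at both, with a log2 fold change of 0.38 (SE 0.40) across times. Fdft1, which makes squalene, ranged from 48.3 to 234 CPM and the demethylating oxygenase Msmo1 from 30.9 to 228 CPM. Both had their lowest value in control 25 DPI replicate 2 and their highest in control 25 DPI replicate 1. Lss, the cyclase that makes lanosterol, kept to 32.8 to 54.3 CPM.

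Dhcr7, Sc5d and Lbr were the 3 of 27 genes with higher CPM in the iDKO library of all 4 pairs, which 6.73% of tested genes also were, and 0 of 27 were lower in all 4 (6.7%). They lie at chr7:143823145-143848410 (plus strand), chr9:42251595-42264256 (minus strand) and chr1:181815335-181843046 (minus strand) in GRCm38, and Lbr shares 10.7% of its exon length with Dnah14 on the other strand and the rRNA gene model Gm26004. Dhcr7 reduces the last precursor to cholesterol, a precursor that skin also uses to make vitamin D. It was at 34.9 and 63.2 CPM in control against 77.3 and 65.9 in iDKO at 25 DPI, and at 60.1 and 55.9 against 77.2 and 103 at 52 DPI. The groups did not overlap at either time, though at 25 DPI the highest control and the lowest iDKO library were close. Its log2 fold change across both times was 0.59 (SE 0.30) without a block and 0.61 (SE 0.21) with the block of pairs, neither called by edgeR (adjusted p = 1.00 and 0.996), and it lay between 0.43 and 0.80 without 1 library. Sc5d introduces the double bond of the sterol ring just before that step. It was at 51.4 and 29.1 CPM in control against 62.8 and 42.6 in iDKO at 25 DPI, and at 50.9 and 52.0 against 57.5 and 79.1 at 52 DPI. The groups overlapped at 25 DPI and not at 52 DPI, and the fit across times gave 0.40 (SE 0.30), or 0.40 (SE 0.14) with the block of pairs (adjusted p = 0.996 by edgeR). Lbr is a sterol reductase that is also a receptor for lamin in the inner nuclear membrane. It was at 51.1 and 51.2 CPM in control against 81.1 and 67.6 in iDKO at 25 DPI, and at 107 and 63.5 against 108 and 86.3 at 52 DPI. The control values at 25 DPI lay close together and below both iDKO values, and at 52 DPI the 2 replicate 1 libraries were nearly equal. Its log2 fold change at 25 DPI was 0.54 (SE 0.47), or 0.53 (SE 0.21) with the block of pairs (adjusted p = 0.731 by edgeR), and across times it was 0.36 (SE 0.29).

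Tm7sf2, Nsdhl and Ebp were lower in iDKO in both 25 DPI pairs and higher in both 52 DPI pairs, and Hsd17b7 was not. Tm7sf2, the second sterol reductase of the same step as Lbr, was at 11.2 and 9.25 CPM in control against 10.7 and 6.97 in iDKO at 25 DPI, and at 4.60 and 5.72 against 7.98 and 8.24 at 52 DPI. The groups overlapped at 25 DPI and not at 52 DPI, where the log2 fold change was 0.65 (SE 0.51). Nsdhl, a dehydrogenase that removes methyl groups of the sterol ring with Msmo1, was at 51.7 and 21.3 CPM in control against 31.4 and 20.1 in iDKO at 25 DPI, and at 20.9 and 24.4 against 22.5 and 29.0 at 52 DPI. Only control 25 DPI replicate 1 and iDKO 25 DPI replicate 1 passed 30 CPM. Ebp was at 157 and 33.5 CPM in control against 100.4 and 29.6 in iDKO at 25 DPI, and at 45.5 and 36.2 against 48.8 and 43.8 at 52 DPI. Here both 25 DPI replicate 1 libraries were far above the rest. Nsdhl and Ebp lie on chromosome X. Without control 25 DPI replicate 1 the log2 fold changes at 25 DPI, -0.50 (SE 0.56) for Nsdhl and -0.55 (SE 0.82) for Ebp, were 0.22 and 0.90. Hsd17b7, the ketosteroid reductase that works with Nsdhl, was at 61.2 and 31.9 CPM in control against 60.9 and 56.9 in iDKO at 25 DPI, and at 22.4 and 40.2 against 30.1 and 45.6 at 52 DPI. The 25 DPI replicate 1 libraries were almost equal and the other 3 pairs were higher in iDKO, with 0.31 (SE 0.34) across times and 0.36 (SE 0.17) with the block of pairs.

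The transcription factor genes ranged less than most enzymes they control. The 5 genes of the SREBP system had 4 positive log2 fold changes at 25 DPI (median 0.35) and 3 at 52 DPI (median 0.10), where 0 of 5 were higher in the replicate 1 pair and 4 of 5 in the replicate 2 pair. Srebf1, whose products drive fatty acid as well as sterol genes, was at 119 and 176 CPM in control against 181 and 225 in iDKO at 25 DPI, and at 207 and 198 against 180.1 and 200.2 at 52 DPI. The groups did not overlap at 25 DPI, where the log2 fold change was 0.46 (SE 0.48), or 0.48 (SE 0.21) with the block of pairs (adjusted p = 0.731 by edgeR), and they overlapped at 52 DPI (-0.09, SE 0.48). Srebf2, the main factor of cholesterol genes, was at 180.04 and 233 CPM in control against 173 and 355 in iDKO at 25 DPI, and at 219 and 267 against 217 and 318 at 52 DPI. It was nearly equal in both replicate 1 pairs and higher in iDKO in both replicate 2 pairs, with 0.25 (SE 0.35) across times. Scap was at 53.1 and 165 CPM in control against 90.7 and 153 in iDKO at 25 DPI, and at 163 and 163 against 143 and 151 at 52 DPI. The 25 DPI replicate 1 libraries were low and the other 6 lay within 143 to 165 CPM. Insig1, itself a target of SREBPs, was at 31.3 and 27.7 CPM in control against 19.8 and 74.0 in iDKO at 25 DPI, and at 40.0 and 71.9 against 31.7 and 88.2 at 52 DPI. Control lay between the iDKO values at both times, and the log2 fold change of 0.67 (SE 0.76) at 25 DPI was -0.57 without iDKO replicate 2. Insig2 was at 207 and 72.7 CPM in control against 107 and 88.5 in iDKO at 25 DPI, and at 101 and 83.7 against 93.7 and 336 at 52 DPI. A single library, iDKO 52 DPI replicate 2, set the 52 DPI value of 1.22 (SE 0.76), which was 0.03 without it.

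Soat1, which esterifies cholesterol for storage, had the smallest p of the list at 52 DPI. Its level was 31.1 and 10.9 CPM in control against 23.2 and 15.2 in iDKO at 25 DPI, and at 8.23 and 10.7 against 18.5 and 26.9 at 52 DPI. Both 52 DPI pairs were higher in iDKO and the groups did not overlap, while at 25 DPI control enclosed iDKO. At 52 DPI the log2 fold change was 1.26 (SE 0.62), or 1.25 (SE 0.30) with the block of pairs, where the unadjusted p was 0.00445 and the adjusted p 1.00 by edgeR and 0.206 by DESeq2. It lay between 0.98 and 1.50 without 1 library. Soat1 lies at chr1:156424525-156474331 on the minus strand (GRCm38). Acat2, the cytosolic thiolase that makes acetoacetyl-CoA, was at 75.7 and 17.4 CPM in control against 45.7 and 20.7 in iDKO at 25 DPI, and at 21.7 and 19.3 against 24.5 and 30.2 at 52 DPI. Its groups did not overlap at 52 DPI, with a log2 fold change of 0.42 (SE 0.73). Stard4, a carrier of sterol between membranes, was at 44.6 and 35.9 CPM in control against 21.0 and 55.1 in iDKO at 25 DPI, and at 24.9 and 63.2 against 21.5 and 107 at 52 DPI. It was lower in iDKO in both replicate 1 pairs and higher in both replicate 2 pairs.

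Counted over the list, 3 of 27 genes had every iDKO library above every control library at 25 DPI, Dhcr7, Srebf1 and Lbr, against 5.39% of tested genes, and 0 of 27 the reverse (5.15%). At 52 DPI it was 5 of 27, Tm7sf2, Sc5d, Dhcr7, Acat2 and Soat1 (11.9%), and 1 of 27, Scap, the reverse (10.2%). Dhcr7 was the gene in both counts of higher genes.

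The comparison of 52 with 25 DPI asks how levels differed with time, and with it sex. In control the median log2 fold change of the 27 genes was -0.12, against -0.14 over all tested genes, and in iDKO it was 0.15 against -0.12. By edgeR's test 0 of 27 were called in control (0%) and 0 of 27 in iDKO (0%), with 0 of 27 at an unadjusted p under 0.05 in each (1.51% and 1.67% of tested genes). DESeq2 called 0 of 27 in each (0.0729% and 0.0617%), with 1 gene, Mvd, at an unadjusted p under 0.05 in control (3.39%) and 0 in iDKO (2.79%). With the replicate number as a block edgeR had 0 of 27 at an unadjusted p under 0.05 in control (4.2%) and in iDKO (3.98%). Hmgcs1, Insig1, Srebf1 and Lbr were higher in both control libraries at 52 DPI than in both at 25 DPI (4 of 27, against 11% of tested genes), and Lss, Tm7sf2 and Soat1 were lower (3 of 27, against 9.7%). In iDKO, Lbr was higher (1 of 27, against 11.6%) and Hsd17b7 lower (1 of 27, against 8.75%). Tm7sf2 had a log2 fold change of -0.99 (SE 0.51) in control, and Lbr one of 0.74 (SE 0.47) in control and 0.38 (SE 0.47) in iDKO. Mvd, Acat2 and Ebp, at -1.93 (SE 1.01), -1.18 (SE 0.74) and -1.22 (SE 0.83) in control, were at 0.39, 0.23 and 0.28 without control 25 DPI replicate 1. Insig2 and Stard4, at 1.13 (SE 0.76) and 0.76 (SE 0.86) in iDKO, were at -0.02 and -0.80 without iDKO 52 DPI replicate 2. The comparisons of genotype and of time share libraries, so their values are not independent.

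Genes around the pathway were counted in 6 further lists, with 0 called by edgeR in any genotype comparison. The fatty acid branch of SREBP had 8 of 13 positive at 25 DPI (median 0.22), 12 of 13 at 52 DPI (0.25) and 10 of 13 across both times (0.30), where 3 of 13 had an unadjusted p under 0.05 (0.729% of tested genes). Of all tested genes 47.5%, 48.4% and 46.6% were positive in these comparisons. The 3 were Elovl5, a fatty acid elongase (log2 fold change 1.22, SE 0.46), the desaturase Scd2 (1.16, SE 0.51) and the desaturase Fads1 (0.97, SE 0.37). Scd2 was at 317 CPM in iDKO 52 DPI replicate 2, against 40.3 to 102 in the other libraries. Fads1 was also highest there, at 24.3 CPM against 4.23 to 18.7. Both were higher in iDKO in all 4 pairs. Elovl5 was at 42.9 and 23.2 CPM in control against 140.7 and 37.5 in iDKO at 25 DPI, and at 38.8 and 31.0 against 50.9 and 89.5 at 52 DPI, higher in iDKO in all 4 pairs and highest in iDKO 25 DPI replicate 1, the library with the highest Scd3, Awat1, Awat2 and Far2. The part of sebaceous cells in the level of Elovl5 was not tested. Fasn, the fatty acid synthase, had 0.79 (SE 0.21) at 25 DPI with the block of pairs (adjusted p = 0.645 by edgeR). Genes that process SREBP or degrade sterol enzymes had 7 of 10 positive at 25 DPI and 3 of 10 at 52 DPI (medians 0.11 and -0.11), those of LXR and cholesterol efflux 4 of 10 and 5 of 10 (-0.03 and 0.05), and those of sterol uptake and transport 9 of 13 and 7 of 13 (0.08 and 0.19). Genes that use isoprenoids had 7 of 13 and 4 of 13 positive (0.03 and -0.06). Of sterol use in epidermis 5 of 6 genes were tested, with 3 and 4 positive (0.14 and 0.27). Among them Ch25h, which makes an oxysterol that restrains SREBP processing, was at 3.99 and 3.79 CPM in control against 7.30 and 11.8 in iDKO at 25 DPI, and at 18.4 and 18.1 against 5.50 and 2.03 at 52 DPI. It was above control in both pairs at 25 DPI and below it in both at 52 DPI, with log2 fold changes of 1.30 (SE 0.62) and -2.27 (SE 0.64), neither called by edgeR (adjusted p = 1.00 for both). The difference between the times was -3.57 (SE 0.89), also uncalled by edgeR (adjusted p = 1.00). DESeq2 with the block of pairs called Ch25h at 52 DPI (adjusted p = 0.00146) and for the difference between times (adjusted p = 0.000206), the only calls in these 6 lists by either tool in the genotype comparisons of all 8 libraries.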

How the data were processed

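Epidermal RNA was measured by RNA-seq in 8 libraries, prepared with Trizol and a SMART-seq v4 kit per the labels' protocols. The strand type still differed between replicate 1 and replicate 2 libraries, so whether all 8 were prepared alike is not known. The deposited values were raw read counts per gene, and per the submitters' processing notes the tools included STAR 2.5.2a, Trimmomatic 0.35, FastQC 0.11.9 and DESeq2 1.24.0, with the builds GRCm38 and mm10. Counts taken without regard to strand were used. Identifiers of 54723 genes were matched to symbols and 115 were not.

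Genes with low counts were removed by filterByExpr (17839 of 54838 genes tested), libraries were scaled by TMM, and edgeR 4.0.16 (R 4.3.3) fitted its quasi-likelihood test to all 8 libraries with 4 group means (4 residual degrees of freedom), or time and genotype across both times (5), with Benjamini-Hochberg adjustment over all genes tested at 0.05. A library's CPM is its count over its TMM-scaled total, and 0.5 was added before log2 values were taken. The scripts were tested on simulated data. The groups had 2 biological replicates each, and p-values rest on a spread estimated from all groups together. With the block of pairs the spread is that left within pairs, with 2 residual degrees of freedom, or 3 across both times.

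The 27 genes and the other lists were chosen with earlier results of these data known. Values in every library are given for the 6 genes with the smallest p per comparison with and without the block of pairs, those moving one way in all 4 pairs, and those with the highest and lowest mean CPM. Of other pathway lists, genes were named among the 3 with the smallest p.

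The pairing comes from the replicate numbers in the labels. Deviations from group means of same-numbered libraries correlated across all tested genes with r of 0.403 to 0.831 in all 6 pairs of groups. Over the 27 genes r was 0.542 between the groups at 25 DPI, 0.696 at 52 DPI and -0.267 to 0.470 across times. Same-numbered libraries also share strand type, so these values do not show that they are matched samples. DESeq2 1.42.0, other scalings, no filter, stranded counts for replicate 2, blocks and leaving out each library were tried.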

Additional observations from a re-analysis of the deposited data

Results flagged for a closer look

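Tm7sf2, Nsdhl and Ebp, enzymes of the late sterol steps, had lower CPM in the iDKO library of both 25 DPI pairs and higher CPM in that of both 52 DPI pairs. The difference of the genotype effect, 52 less 25 DPI, was 0.87 (log2, SE 0.72) for Tm7sf2, 0.69 (SE 0.78) for Nsdhl and 0.74 (SE 1.16) for Ebp. The difference itself was tested by edgeR's quasi-likelihood test with Benjamini-Hochberg adjustment and was not called for any of them (adjusted p = 1.00 for each, and 0.793, 0.802 and 0.793 with the block of pairs). For Tm7sf2 the log2 ratios of the pairs were -0.07 and -0.39 at 25 DPI and 0.73 and 0.49 at 52 DPI. For Nsdhl they were -0.71 and -0.08, then 0.10 and 0.25. Ebp had -0.65 and -0.17, then 0.10 and 0.27. Without control 25 DPI replicate 1 the difference was -0.04 for Nsdhl and -0.71 for Ebp.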

How the results depend on the processing

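Of the 27 genes 0 were called by any tool under any of the settings tried, and the replicate block changed no call of a listed gene. Of 678 values for listed genes under alternatives, 660 kept their direction and 18 turned, 16 of these when 1 library was left out. Counts of called genes over all tested genes were 0 by edgeR in each comparison. Without a filter on low counts they were 8 (25 DPI), 25 (52 DPI), 16 (both times), 19 (difference between times), 62 (52 against 25 DPI in control) and 37 (in iDKO). DESeq2 called 2, 1 and 8 genes at 25 DPI, at 52 DPI and across both, and 13 and 11 between times in control and iDKO. With the replicate block within time DESeq2 called 96, 35, 70 and 38 genes in the genotype comparisons and their difference. That block called 1 gene by edgeR across both times. Without both 25 DPI replicate 1 libraries, a setting chosen after seeing the data that leaves 1 pair at 25 DPI, it called 2, Mvd had a log2 fold change of 1.01 at 25 DPI and -0.41 for the difference, and the median difference of the 27 genes was -0.29. The cause of these changes was not tested.

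Leaving out 1 library, with the lone sample assumed to vary like the other groups, gave medians over the 27 genes of -0.32 to 0.72 at 25 DPI, -0.10 to 0.59 at 52 DPI and -0.40 to 0.91 for their difference. At 25 DPI Mvd ranged from -1.82 to 1.28, Nsdhl from -0.98 to 0.22, Insig1 from -0.57 to 1.39 and Ebp from -1.59 to 0.90. Sqle ranged from -0.10 to 1.09 at 52 DPI, and Srebf2 from -0.000476 to 0.42 across both times. For the difference, Mvd ranged from -0.54 to 2.57, Nsdhl from -0.039 to 1.17, Acat2 from -0.46 to 1.58 and Ebp from -0.71 to 1.77. Between times in control, Mvd ranged from -2.75 to 0.39, Acat2 from -1.85 to 0.23 and Ebp from -1.91 to 0.28. In iDKO, Insig2 ranged from -0.023 to 1.79 and Stard4 from -0.80 to 1.61.

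Depth limits Fdps (36 to 156 counts per library) and Tm7sf2 (73 to 466) most. With 2 libraries a group and replicates of 1 group as far apart as the control libraries at 25 DPI, changes of the size seen here were not detectable, and their absence is not shown.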
